A study of Arabidopsis thaliana with 17 samples.

Results

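A set of 156 Arabidopsis thaliana genes was lower in bioprinted constructs than in isolated root cells in both tissues of the study. A gene entered the set by 4 conditions on its pooled expression value. Its level was at least 20 FPKM in isolated cells of both tissues, and in constructs on the day of printing it was at most 50% of the isolated cell level in differentiated tissue and at most 50% in meristematic tissue. It also had to be at 1 FPKM or more in differentiated constructs at day 3. FPKM counts sequenced fragments per length of transcript and per number of mapped fragments. The 156 members were taken from 32654 single gene IDs on the 5 nuclear chromosomes, of which 5837 reached the minimum in both groups of isolated cells. Another 163 genes at this minimum were lowered in differentiated tissue only, 608 in meristematic tissue only and 4870 in neither. A further 40 genes were lowered in both tissues but lay under 1 FPKM at day 3, so the set leaves out the genes with the lowest levels at day 3.

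Bioprinting places living cells, mixed into a printable gel, layer on layer to form an object that is called a construct here. The 17 libraries came from plants carrying pSCR:SCR-mCherry, in which the promoter of SCARECROW (SCR) drives SCR joined to the red fluorescent mCherry; SCR is a regulator of endodermis and stem cells. Constructs of differentiated root tissue had 3 libraries at day 0, 3 at day 1 and 2 at day 3, set against 3 libraries of isolated differentiated cells at day 0. Constructs of meristematic root tissue had 3 libraries at day 0, set against 3 of isolated meristematic cells at day 0, with no later times.

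Wounding or handling of plant tissue is known to switch on fast stress genes, many of them short transcription factors, calcium sensors and signalling proteins whose messages are made and lost quickly. Root hairs are outgrowths of epidermal cells that need expansins, extensins, peroxidases, actin regulators and ROP GTPases to extend their wall at the tip. Aquaporins of the plasma membrane and the vacuole let water pass, and they are abundant in roots.

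The values below are the authors' pooled FPKM, 1 per group, so no SD can be given for a gene. Values per library could not be used gene by gene, because lines of the deposited columns do not match up across libraries. A gene was called changed in a comparison where q was under 0.05 in the authors' deposited table and FPKM was at least 1 in either group. Since the members were chosen on their pooled values at day 0, their difference between constructs and isolated cells is a description and not a result. In bulk samples such as these, fewer cells of a type and less RNA per cell cannot be told apart.

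In differentiated tissue the members had a median of 32.3 FPKM in constructs at day 0 (6.56 to 432), against 78.1 in isolated cells (20.2 to 998). In meristematic tissue the median was 43.0 FPKM in constructs (8.98 to 583), against 118 in isolated cells (21.5 to 1943). The construct level was thus a median 42.2% of the isolated cell level in differentiated tissue and 38.2% in meristematic tissue, where all 5837 genes at the minimum had medians of 84.5% and 83.5%. The deposited q called 150 of the 156 members lower in differentiated constructs, where 7.5% of all genes tested were called lower and 4.93% higher. It called 153 lower in meristematic constructs, against 8.6% of all genes tested (1.79% were higher), and 149 in both. The 2 members called in neither, the protein kinase AT1G28390 and the lipid transfer protein AT1G48750, each overlap another gene. Just inside the limit of 50% lay SRX at 49.84% and GATL6 at 49.80%, and just outside it lay AT3G45730 at 50.003% and AT3G15480 at 50.05%, both in differentiated tissue. After rescaling of each group to the same total (TPM), 73 genes met the conditions, 72 of them members.

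**Figure D1:**
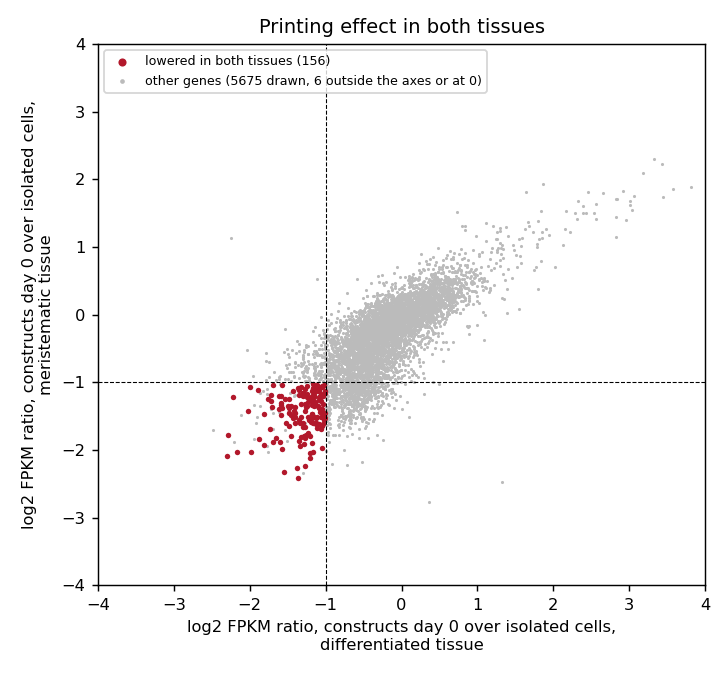
Each point is a gene at 20 FPKM or more in both groups of isolated cells; the axes give the log2 ratio of pooled FPKM in constructs at day 0 over isolated cells, in differentiated tissue (x) and meristematic tissue (y). Red points are the 156 members, which lie below and left of the dashed lines at -1 by choice, and grey points are 5675 other genes.

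Most members were still under 50% of the isolated cell level at day 3. Their median level in differentiated constructs was 42.2% of that in isolated cells at day 0, 21.2% at day 1 and 13.0% at day 3, and the range at day 3 ran from 0.426% to 365%. At day 3, 23 of the 156 members (35 after rescaling to TPM) were at or above 50% of the isolated cell level and 7 were at or above that level itself. At the other end, 68 members were under 10%, and 125 were under their own level at day 0. By value, 95 members went down at both steps, 14 went up at both, 22 went up by day 1 and then down, and 25 went down by day 1 and then up. Of all 5837 genes at the minimum, 3334 (57.1%, or 67.2% after rescaling to TPM) were at or above 50% of the isolated cell level at day 3. Under 10% were 600 (10.3%). Of these genes, 68.4% were under their level at day 0 and 50.3% went down at both steps. The members had 80.1% and 60.9%. The 163 genes lowered in differentiated tissue only, here without the floor at day 3, had 77.9% and 63.2%.

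The step from day 1 to day 3 is the comparison that the choice of members used least, only through the floor of 1 FPKM at day 3. By the deposited q, 45 members fell in this step and 2 rose, where 8.53% of all genes tested fell and 5.92% rose. Among the 5823 genes tested that were at the minimum in isolated cells, 932 (16.0%) fell and 138 (2.37%) rose. The median log2 ratio of day 3 over day 1 was -0.58 for the members, -0.32 for the genes at the minimum and -0.03 for all genes tested. Well expressed genes as a whole thus also had a median below 0 in this step. The 3rd library at day 1 had 14779 genes at 1 FPKM or more, against 16563 and 16868 in the other 2 at day 1, and no value can be given without it. Against day 0, a group that the choice of members did use, 78 members were called lower at day 1 (16.5% of all genes tested) and 11 higher (16.3%). At day 3, 91 were called lower than at day 0 (21.3% of all genes tested) and 10 higher (21.2%). Of the members, 73 (46.8%) were lower than at day 0 at both later times, against 24.8% of genes at the minimum and 13.7% of all genes tested. Another 7 (4.49%) were higher at both, against 5.39% and 13.0%. At each later step 33 members fell (21.2%), against 9.46% of genes at the minimum and 4.03% of all genes tested.

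Held to the same floor at day 3, the 140 genes lowered in differentiated tissue only had a median of 17.6% of the isolated cell level at day 3, with 30 (21.4%) at or above 50%. The 591 genes lowered in meristematic tissue only had a median of 46.2%, and the 4830 lowered in neither had 66.5%. The members' median of 13.0% lay nearest to that of the genes lowered in differentiated tissue only. Members whose level at day 0 was 45 to 50% in the less lowered tissue (63 genes) had a day 3 median of 16.0%, and the 160 genes just beyond the limit, at 50 to 55%, had 31.8%. These shares were not compared by a test, because each class was cut on the same isolated cell values.

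**Figure D2:**
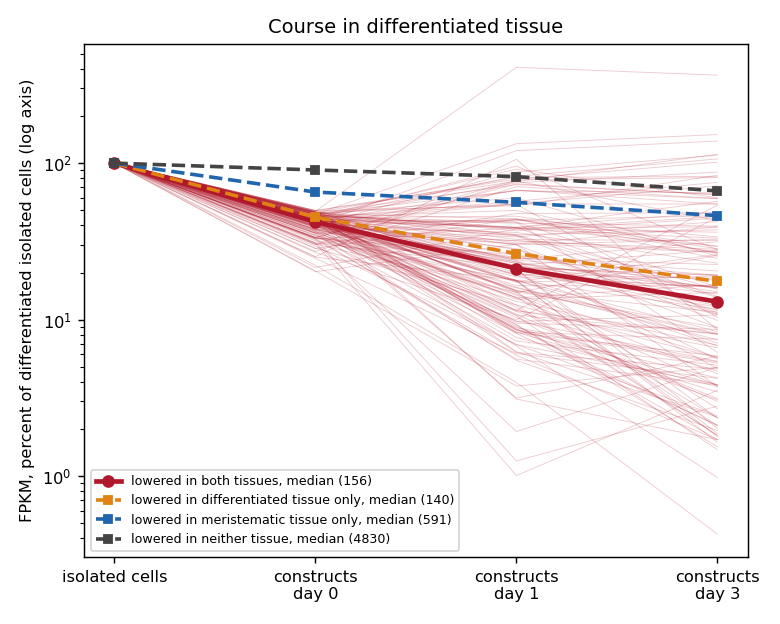
Pooled FPKM in differentiated tissue as a percent of isolated cells (log axis), for isolated cells and for constructs at days 0, 1 and 3. Thin red lines are the 156 members and the thick red line their median, 42.2%, 21.2% and 13.0% in constructs; dashed lines are medians of genes lowered in differentiated tissue only, in meristematic tissue only, or in neither.

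By the role of the product, 94 members fell into 12 groups drawn up after the values had been seen. Wall proteins, wall enzymes and peroxidases were the largest group, with 19 members. Their median at day 3 was 3.79% of the isolated cell level, 14 of the 19 were under 10% and none reached 50%. By the deposited q, 13 of the 19 fell between day 1 and day 3 and 1 rose, where 16.0% of genes at the minimum fell and 2.37% rose (8.53% and 5.92% of all genes tested).

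EXPA18 (AT1G62980) is an expansin, a protein that loosens the wall of growing root hairs. In differentiated tissue the constructs had 11.6 FPKM of it at day 0, 17.3 at day 1 and 2.14 at day 3, against 57.1 in isolated cells. In meristematic tissue it was at 17.9 FPKM in constructs, against 75.6 in isolated cells. The change between day 0 and day 1 did not pass, and the fall to day 3 was 8.11-fold (q 0.000551, the smallest in the authors' deposited table). RHS13 (AT4G02270), named for its expression in root hairs, was at 34.5 FPKM at day 0, 17.7 at day 1 and 1.88 at day 3, against 101 in isolated cells of differentiated tissue. Its fall between day 1 and day 3 was 9.41-fold (q 0.00144 in the authors' deposited table). In meristematic tissue it was at 31.4 FPKM in constructs, against 157 in isolated cells.

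AT5G10130, of the pollen Ole e 1 and extensin family, had the highest level of all members in meristematic isolated cells. It was at 142 FPKM on day 0, 25.3 on day 1 and 2.71 on day 3 in differentiated constructs, against 637 in isolated cells, which left 0.426% at day 3. In meristematic tissue it was at 477 FPKM in constructs, against 1943 in isolated cells. Related AT3G09925 fell 10-fold between day 1 and day 3 (q 0.000551 in the authors' deposited table), to 5.42 FPKM, against 304 in isolated cells. AT2G47540, of the same family, took another course. It was at 12.0 FPKM at day 0, 50.2 at day 1 and 4.09 at day 3, against 47.4 in isolated cells, so it passed the isolated cell level at day 1 and lost it again. Both later steps passed (q 0.000551 for each in the authors' deposited table).

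Enzymes that build or trim the wall followed. XTH4 (AT2G06850), which cuts and rejoins xyloglucan chains, was at 82.5 FPKM at day 0, 22.6 at day 1 and 6.87 at day 3, against 219 in isolated cells. UDG4 (AT5G39320), a UDP-glucose dehydrogenase that supplies sugar for pectin and hemicellulose, was at 74.1, 27.7 and 4.70 FPKM over the same days, against 200 in isolated cells. GXMT1 (AT1G33800), which methylates the side chains of xylan, was at 19.8, 9.73 and 1.37 FPKM, against 65.1 in isolated cells. These 3 enzymes all fell between day 1 and day 3 in the authors' deposited table, by 3.29-fold (q 0.00183), 5.90-fold (q 0.000551) and 7.10-fold (q 0.00144). In this step 16.0% of genes at the minimum and 8.53% of all genes tested fell.

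The wall group also held structural proteins, and TBL39 of an enzyme family. The extensin-like protein ELP (AT1G12090) was at 270 FPKM at day 0, 134 at day 1 and 27.4 at day 3, against 563 in isolated cells. AGP22 (AT5G53250), an arabinogalactan protein of the cell surface, was at 75.2, 26.1 and 7.16 FPKM, against 189 in isolated cells. TBL39 (AT2G42570), of a family that adds acetyl groups to wall polymers, was at 47.6, 43.5 and 54.0 FPKM, against 112 in isolated cells, with no call at any later step.

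The 4 peroxidases, secreted enzymes that cross-link or loosen walls through hydrogen peroxide, differed in their later course. AT5G17820 was the most abundant, at 328 FPKM at day 0, 81.1 at day 1 and 49.2 at day 3, against 916 in isolated cells. AT4G26010 was at 46.8, 18.6 and 2.85 FPKM, against 106 in isolated cells. AT1G30870 had no call between day 0 and day 1 (q 0.562) and fell between day 1 and day 3 (q 0.00757, both in the authors' deposited table). AT2G18980 was at 19.2 FPKM at day 0, 7.10 at day 1 and 32.1 at day 3, against 71.1 in isolated cells. It rose between day 1 and day 3 by a log2 ratio of 2.17 (q 0.000551 in the authors' deposited table), and was 1 of 2 members to do so. The other was AT5G02550, which has no characterized product, at 9.66, 2.37 and 11.1 FPKM over days 0, 1 and 3, against 20.7 in isolated cells (log2 ratio of day 3 over day 1 2.23, q 0.0401 in the authors' deposited table). AT5G02550 was not called lower in differentiated constructs at day 0 (q 0.0663 in the same table).

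Proteins of the growing hair tip that do not belong to the wall were low as well. The actin depolymerizing factors ADF8 (AT4G00680) and ADF11 (AT1G01750) cut and turn over actin filaments. ADF8 was at 36.4 FPKM at day 0, 18.3 at day 1 and 2.06 at day 3, against 87.7 in isolated cells, and its last step was an 8.91-fold fall (q 0.000551 in the authors' deposited table). ADF11 was at 39.4, 21.9 and 2.11 FPKM, against 104 in isolated cells, and its last step, a log2 ratio of -3.37, did not pass (q 0.0633 in the authors' deposited table). ROP2 (AT1G20090), a small GTPase that marks the site of hair outgrowth, was at 34.0, 18.8 and 13.2 FPKM, against 82.4 in isolated cells.

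A list of 16 root hair growth genes held 2 members, EXPA18 and RHS13. RHS19, also in the list, was kept out of the set only by the floor at day 3. The list's calls and medians at day 0 include these genes and are a description, and its sums without members include RHS19. Of the 16, 7 were called by the authors' deposited table as lower in differentiated constructs and 11 in meristematic constructs at day 0. Between day 1 and day 3, 10 fell, and none was called higher in any of the 3 comparisons. Of all genes tested, 7.5%, 8.6% and 8.53% were called lower in the same order, and of genes at the minimum 11.2%, 16.3% and 16.0%. The list's median log2 ratios in these 3 comparisons were -0.74, -1.03 and -1.72, where all genes tested had -0.13, -0.14 and -0.03. The 14 genes of the list that are no members summed to 293 FPKM on day 0, 220 on day 1 and 85.8 on day 3 in differentiated constructs, against 422 in isolated cells. In meristematic tissue they summed to 365 FPKM in constructs, against 598 in isolated cells. Among 11 markers of root cell types, the hair marker COBL9 was at 2.46 FPKM on day 0, 3.18 on day 1 and 0.657 on day 3 in differentiated constructs, against 8.19 in isolated cells. In meristematic tissue COBL9 was at 3.71 FPKM in constructs, against 10.3 in isolated cells. COBL9 is also 1 of the 16 root hair growth genes, so it is already part of the counts and sums above. COBL9 and the root cap marker BRN1 were the 2 markers of the 11 called lower in constructs of each tissue, and their part in the members' values was not tested. The 11 markers together summed to 504 FPKM on day 0, 289 on day 1 and 90.9 on day 3 in differentiated constructs, against 637 in isolated cells, and to 450 in meristematic constructs, against 619 in isolated cells. Most of each sum was CASP1, an endodermal gene. The cortex marker CO2 was listed at 0 in differentiated constructs at day 3 and in meristematic constructs and at no more than 0.243 FPKM elsewhere. The meristem marker PLT1 reached at most 1.26 FPKM in any group and was at 0.342 in isolated cells labelled meristematic, against 1.26 in differentiated ones, so it was called lower in the meristematic cells (q 0.0283 in the authors' deposited table), against its label.

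Water channels and other membrane transporters made up 9 members, with a median of 8.15% of the isolated cell level at day 3. PIP3 (AT4G35100), an aquaporin of the plasma membrane, was the most abundant member in differentiated isolated cells. It was at 432 FPKM on day 0, 161 on day 1 and 81.4 on day 3 in constructs, against 998 in isolated cells, and at 447 in meristematic constructs, against 1071 in isolated cells. A second plasma membrane aquaporin, PIP2;4 (AT5G60660), was at 62.6, 22.2 and 8.75 FPKM over days 0, 1 and 3, against 153 in isolated cells. TIP4;1 (AT2G25810), an aquaporin of the vacuole, was at 68.0, 15.6 and 2.90 FPKM, against 169 in isolated cells. NLM1 (AT4G19030), of a class that also passes small solutes, was at 63.6, 15 and 5.24 FPKM, against 216 in isolated cells. The 4 aquaporins fell at each of the later steps by the deposited q, where 9.46% of genes at the minimum and 4.03% of all genes tested did.

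Other transporters differed. The copper importer COPT1 (AT5G59030) was at 8.10% of the isolated cell level at day 3, and DIC2 (AT4G24570), a dicarboxylate carrier of mitochondria, at 16.8%. ZIP2 (AT5G59520), a metal transporter, was at 9.27, 14.7 and 14.8 FPKM over days 0, 1 and 3, against 30.8 in isolated cells. GONST4 (AT5G19980), which carries nucleotide sugars into the Golgi, was at 7.30, 17.1 and 17.7 FPKM, against 21.9 in isolated cells, and was higher at day 3 than at day 0 (q 0.0103 in the authors' deposited table). ZIP2 and GONST4 thus ended at 48.2% and 80.9% of the isolated cell level.

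The 18 transcription factors had a median of 10.9% of the isolated cell level at day 3, and 4 of them were at or above 50%. The largest class was that of AP2/ERF domain proteins, many of which are switched on by cold, drought or wounding. CBF2 (AT4G25470), an activator of cold response genes, was at 7.0 FPKM at day 0, 1.29 at day 1 and 1.70 at day 3, against 34.2 in isolated cells. In meristematic tissue it was at 12.0 FPKM in constructs, against 41.2 in isolated cells. AT1G19210, an AP2/ERF protein annotated only as an integrase-type DNA-binding protein, was at 11.7, 0.385 and 1.35 FPKM, against 38.2 in isolated cells, the lowest level of any member at day 1. DEAR3 (AT2G23340), whose EAR motif marks repressors, was at 52.7, 9.41 and 5.75 FPKM, against 109 in isolated cells. ERF104 (AT5G61600), of ethylene and immune responses, was at 11.7, 13.8 and 10.6 FPKM, against 35.8 in isolated cells, with no call at a later step.

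A list of 25 AP2/ERF and CBF genes of rapid stress responses held 4 members, CBF2, ERF104, AT1G19210 and AT1G22810. Of the 25, 16 were called lower in differentiated constructs and 11 in meristematic constructs at day 0 in the authors' deposited table, and none higher in either. The shares of all genes tested called lower were 7.5% and 8.6%, and those of genes at the minimum 11.2% and 16.3%. The list's median log2 ratio was -1.10 in differentiated and -0.99 in meristematic tissue, where all genes tested had -0.13 and -0.14. These counts and medians at day 0 include the 4 members, chosen on the same values. They also include ORA47, ERF13, DDF1 and ERF8, which only the floor at day 3 kept out of the set. They are thus a description. At day 1, 17 of the 25 were called lower than at day 0, where 26.9% of genes at the minimum and 16.5% of all genes tested were. The 40 genes kept out by the floor at day 3 held more of this class, among them ORA47 at 0.394 FPKM at day 3, against 85.2 in differentiated isolated cells, and ERF13 at 0.513, against 195. None of the 23 WRKY factors at the minimum was a member, and none of the 18 jasmonate genes of a list at that minimum; members made up 2.67% of all genes there, so 0 of classes this small is near that share.

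Other regulators ended low. AXR3 (AT1G04250), an Aux/IAA repressor of auxin response, was at 228 FPKM at day 0, 127 at day 1 and 31.0 at day 3, against 554 in isolated cells, and its last fall was 4.08-fold (q 0.000551 in the authors' deposited table). The zinc finger factor ZAT11 (AT2G37430) was at 36.4, 12.3 and 6.43 FPKM, against 80.0 in isolated cells. MYB77 (AT3G50060), which takes part in auxin response in roots, was at 31.3, 8.77 and 9.64 FPKM, against 90.0 in isolated cells. Its relative MYBR1 (AT5G67300) was at 73.9, 66.3 and 83 FPKM, against 196 in isolated cells, with no call at a later step. ZAT11, MYB77 and MYBR1 were the 3 members in a list of 28 early wound and immune transcription factors. By the deposited q, 8 of the 28 were lower in differentiated constructs at day 0 (7.5% of all genes tested and 11.2% of genes at the minimum). In meristematic constructs 6 were lower (8.6% of all genes tested and 16.3% of genes at the minimum) and 1 higher (1.79% and 1.49%). The list's median log2 ratios were -0.37 and -0.17. These counts and medians include the 3 members, chosen on the same values.

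Some factors were higher at day 3. AHL22 (AT2G45430), a DNA-binding protein with an AT-hook, was at 12.8 FPKM at day 0, 36.2 at day 1 and 41.4 at day 3, against 27.2 in isolated cells, and was higher at day 3 than at day 0 (q 0.000551 in the authors' deposited table). AT1G36060, another AP2/ERF protein, was at 11.2, 24.3 and 31.1 FPKM, against 27.6 in isolated cells (q 0.00144 for day 3 against day 0 in the authors' deposited table). COL3 (AT2G24790), of the CONSTANS-like family of light and flowering regulators, stood at 64.5% at day 3. It had no call between any 2 of days 0, 1 and 3.

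Calcium sensors and calcium-dependent membrane proteins made up 7 members, with a median of 18.4% at day 3. TCH2 (AT5G37770), a calmodulin-like protein first known as a touch gene, was at 92.8 FPKM at day 0, 42.8 at day 1 and 38.5 at day 3, against 201 in isolated cells. In meristematic tissue it was at 169 FPKM in constructs, against 361 in isolated cells. MSS3 (AT2G43290), a related calcium-binding protein, was at 81.9, 67.4 and 99.7 FPKM, against 175 in isolated cells, and had no call at a later step. AT3G01830, also with EF hands, was at 44.9, 7.66 and 3.72 FPKM, against 99.6 in isolated cells. A list of 14 calcium sensors, touch genes and calcium transporters held 1 member, TCH2. By the deposited q, 4 of the 14 were lower in differentiated constructs at day 0 and 2 in meristematic ones (7.5% and 8.6% of all genes tested). Of genes at the minimum, 11.2% and 16.3% were called lower. The list's median log2 ratios were -0.65 and -0.44. TCH2, chosen on the same values, is part of these counts and medians. Of 17 measured genes of MAP kinase cascades and immune receptors, 1 was called lower in constructs of each tissue.

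The rapid stress response element, CGCGTT, is known from promoters of genes that respond quickly to wounding. It was searched on both strands in the 300 bases before the annotated gene start, and 8 of the 156 members held it (5.13%), against 4.17% of genes at the minimum and 3.10% of all protein-coding genes of the table. The stretches below are shown for the 3 transcription factors and calcium sensors with a match and for LEA4-5, which is the most abundant of the 8. They are from RefSeq's TAIR10.1 and are written 5′ to 3′ on the strand of the gene, which is the minus strand for each, with 1 match in capitals. AACGCG is the element read from the opposite strand. The CBF2 stretch is at chr4:13016274-13016339, that of AT1G19210 at chr1:6627754-6627819, that of TCH2 at chr5:14999647-14999712 and that of LEA4-5 at chr5:2090431-2090470.
CBF2: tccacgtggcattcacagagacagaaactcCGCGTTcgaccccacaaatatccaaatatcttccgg
AT1G19210: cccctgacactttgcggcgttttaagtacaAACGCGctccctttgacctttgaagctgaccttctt
TCH2: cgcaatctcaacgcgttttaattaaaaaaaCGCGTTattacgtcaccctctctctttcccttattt
LEA4-5: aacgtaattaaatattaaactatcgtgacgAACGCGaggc

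The capitals begin 74 bases before the annotated start of CBF2, 101 before AT1G19210, 63 before TCH2 and 10 before LEA4-5. AT1G19210 overlaps AT1G19220 on the same strand, and whether its stretch lies within that gene was not tested. TCH2 held 4 matches in its window and the other 3 genes 1 each. Matches of TCH2 overlap, since AACGCGTT in its stretch reads as the element on either strand and was counted on each. The 8 members with the element had a median of 10.9% of the isolated cell level at day 3, and the 148 without it 13.0%. The G-box CACGTG, also in the CBF2 stretch in lower case, was in 21 members (13.5%), against 9.31% of genes at the minimum and 7.11% of all protein-coding genes. The W-box core TTGAC was in 96 members (61.5%), against 53.3% and 50.5%. The site II element TGGGCC, common before genes of ribosomal proteins, was in 14 members (8.97%), against 18.4% and 14.8%. Genes lowered in differentiated tissue only held the G-box in 11.9%, the W-box core in 64.4% and the site II element in 5.0%. The other 5 motifs searched were the GCC-box GCCGCC in 1.28% of members, the DRE core GCCGAC in 6.41%, the heat shock element GAANNTTC in 10.9%, the telo-box AAACCCT in 3.85% and the auxin response element TGTCTC in 10.3%. Over all protein-coding genes the shares of these 5 motifs were 2.23%, 3.03%, 11.3%, 8.43% and 12.9% in the same order. Among genes at the minimum they were 2.58%, 4.10%, 11.6%, 6.23% and 11.8%. Among genes lowered in differentiated tissue only they were 1.88%, 6.25%, 11.9%, 3.75% and 16.9%. A match is a run of letters in the window and says nothing of binding.

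Kinases, their substrates and ubiquitin ligases counted 8 members, with a median of 10.2% at day 3 and none at or above 50%. SIP4 (AT2G30360), a kinase that works with calcineurin B-like calcium sensors, was at 107 FPKM at day 0, 18.3 at day 1 and 4.76 at day 3, against 224 in isolated cells, and fell at both later steps (q 0.000551 for each in the authors' deposited table). MAPKKK19 (AT5G67080), of the family at the top of MAP kinase cascades, was at 17.2, 4.66 and 3.32 FPKM, against 41.0 in isolated cells. MKS1 (AT3G18690), a substrate of a MAP kinase in immune signalling, was at 40.6, 24.2 and 14.6 FPKM, against 93.3 in isolated cells. RHA3A (AT2G17450), a RING-type ubiquitin ligase, was at 136, 27.0 and 13.4 FPKM, against 315 in isolated cells, and at 140 in meristematic constructs, against 577 in isolated cells.

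The 5 genes placed in the group of signalling peptides had a median of 19.3% at day 3. None was called between day 0 and day 1 or between day 1 and day 3. At day 3, 3 of the 5 were called lower than at day 0, where 38.5% of genes at the minimum and 21.3% of all genes tested were. A search of product names also counted AT4G22217 as a signalling peptide. That member, outside the 5, was called changed between day 0 and day 1 (q 0.00355 in the authors' deposited table). RALF23 (AT3G16570) and RALFL22 (AT3G05490) encode peptides of the RALF family, which bind receptor kinases at the wall. RALF23 was at 15 FPKM at day 0, 8.23 at day 1 and 4.21 at day 3, against 39.0 in isolated cells, and at 17.1 in meristematic constructs, against 82.4 in isolated cells. RALFL22 was at 128, 76.7 and 61.5 FPKM, against 319 in isolated cells. Both were lower at day 3 than at day 0 (q 0.00678 for RALF23 and 0.0130 for RALFL22 in the authors' deposited table). PSK1 (AT1G13590), the precursor of a growth-promoting sulfated peptide, was at 107, 98.7 and 62.7 FPKM, against 273 in isolated cells.

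Proteins of stress and defence ended at both extremes. LEA4-5 (AT5G06760), a late embryogenesis abundant protein that protects cells from water loss, was at 274 FPKM at day 0, 18.5 at day 1 and 10.2 at day 3, against 596 in isolated cells. Its fall to day 1 passed (q 0.000551 in the authors' deposited table) and the later step did not (q 0.110 in the same table). PR4 (AT3G04720), a chitin-binding defence protein, was at 96.4, 250 and 210 FPKM over days 0, 1 and 3, against 354 in isolated cells. In meristematic tissue PR4 was at 278 FPKM in constructs, against 992 in isolated cells. JAL31 (AT3G16430), a jacalin-related lectin, was at 15.3, 128 and 114 FPKM, against 31.2 in isolated cells, the highest relative level of any member at days 1 and 3. Both PR4 and JAL31 rose between day 0 and day 1 (q 0.000551 for each in the authors' deposited table) and then had no call. By contrast AT4G31470, a cysteine-rich secretory protein of the PR-1 kind, was at 0.981% of the isolated cell level at day 3.

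The 6 genes of the endomembrane system had the highest median at day 3 of the 12 groups, 36.3%, and no call at either later step. RTNLB3 (AT1G64090), a reticulon that shapes tubules of the endoplasmic reticulum, was at 48.0 FPKM at day 0, 61.3 at day 1 and 81.0 at day 3, against 108 in isolated cells. RABA2c (AT3G46830), a small GTPase of the trans-Golgi network, was at 26.5, 27.0 and 29.0 FPKM, against 62.7 in isolated cells. NKS1 (AT4G30996), which acts in the Golgi, was at 22.8, 18.5 and 22.2 FPKM, against 48.8 in isolated cells. Of 4 genes of sterol and sphingolipid synthesis, STE1 (AT3G02580), a sterol desaturase, stood at 54.7% at day 3 and SBH2 (AT1G14290), which hydroxylates sphingoid bases, at 3.45%. The 3 SAUR genes, named for their fast response to auxin, were at 3.82%, 4.70% and 32.0%.

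**Figure D3:**
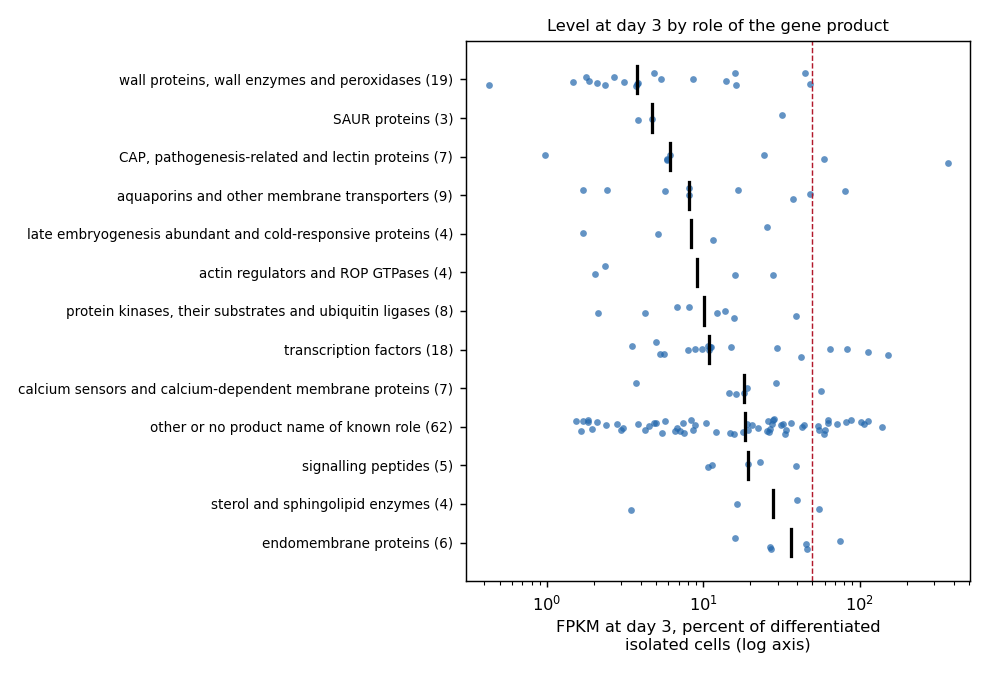
Each point is a member, placed by its pooled FPKM at day 3 as a percent of isolated differentiated cells (log axis) and grouped by the role of its product, with the number of genes in brackets. Black bars are medians, from 3.79% for wall proteins, wall enzymes and peroxidases to 36.3% for endomembrane proteins; the dashed line marks 50%.

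The remaining 62 members had another product or none of known role, a median of 18.4% at day 3, and 13 at or above 50%. CAF1b (AT5G22250), a deadenylase that starts the decay of messenger RNA, was at 15 FPKM at day 0, 10.9 at day 1 and 11.8 at day 3, against 36.3 in isolated cells, and at 27.9 in meristematic constructs, against 132 in isolated cells. Its relative CAF1a missed the set by the floor, at 0.462 FPKM at day 3, against 33.6 in isolated cells. RAS1 (AT1G09950), named for its part in salt and abscisic acid responses, was at 25.9, 6.37 and 4.43 FPKM, against 105 in isolated cells. GSTU28 (AT1G53680), a glutathione transferase, was at 16.9, 7.35 and 1.08 FPKM, against 59.2 in isolated cells, the member closest to the floor. SRX (AT1G31170), a sulfiredoxin that repairs oxidized peroxiredoxins, was at 12.1, 19.2 and 24.6 FPKM, against 24.3 in isolated cells, with no call at a later step. Its lower level in differentiated constructs at day 0 was not called either (q 0.0615 in the authors' deposited table). MMP (AT1G70170), a matrix metalloproteinase, was at 13.1, 26.2 and 17.2 FPKM, against 28.6 in isolated cells.

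**Figure D4:**
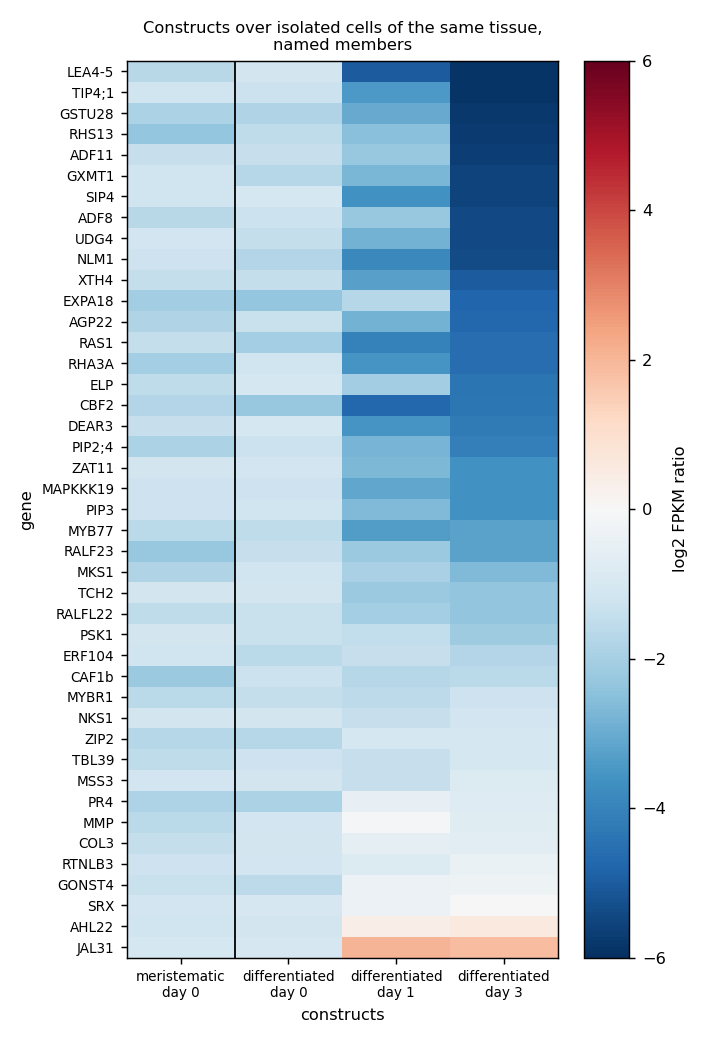
Log2 ratio of pooled FPKM in constructs over isolated cells of the same tissue for 43 members chosen by rule, sorted by day 3; columns are meristematic constructs at day 0 and differentiated constructs at days 0, 1 and 3. At day 3, 34 of the 43 were under 50% of the isolated cell level, with LEA4-5 lowest at 1.71% and JAL31 highest at 365%.

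The members were mostly higher in meristematic than in differentiated isolated cells. By value 139 of the 156 were higher, 27 of which turned lower after rescaling to TPM, with a deposited median log2 ratio of 0.54, against 0.18 for all genes at the minimum. By q in the authors' deposited table, 40 members were called higher in meristematic cells, where 4.62% of all genes tested were, and 2 lower, where 3.15% were. The isolated cell values also chose the members, so these counts are a description. CAF1b had the largest ratio, 132 FPKM in meristematic cells, against 36.3 in differentiated cells, and AT5G10130 stood 3.05-fold higher. The 2 members lower in meristematic cells were the peroxidase AT2G18980, at 34.1 FPKM, against 71.1 in differentiated cells, and the late embryogenesis abundant protein AT1G54890, at 27.2, against 56.8. Among constructs at day 0, 38 members were called higher in the meristematic ones (4.8% of all genes tested) and 1 lower (4.63%), which was ELP. By value, 102 members were lowered further in meristematic than in differentiated tissue, and the table holds no error from which that difference could be tested. The 3rd library of meristematic cells had the highest summed FPKM of the 17 and 14756 genes at 1 FPKM or more, where the other 2 had 16587 and 16496, and the group value cannot be recomputed without it.

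The members had few exons. In the TAIR10.1 annotation, 74 of the 156 (47.4%) had 1 exon, against 16.3% of the genes at the minimum, 31.9% of those lowered in differentiated tissue only and 25.6% of those lowered in meristematic tissue only. Transcripts under 1000 bases made up 40.4% of the members and 20.6% of the genes at the minimum, and the median transcript was 1119.5 bases, against 1469. Genes lowered in meristematic tissue only were shorter still, with 63.0% under 1000 bases. Members with 1 exon had a median of 10.9% of the isolated cell level at day 3, and those with 2 or more exons 15.9%. FPKM depends on transcript length, and how length bears on these shares was not tested.

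**Figure D5:**
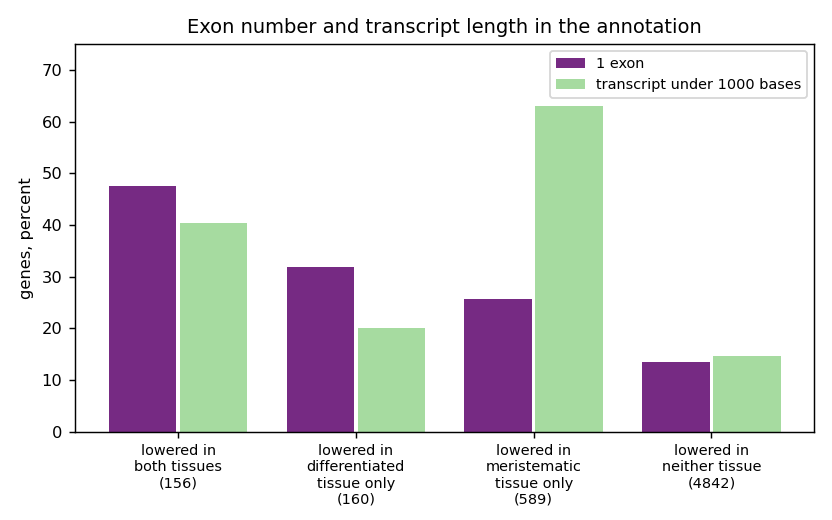
Percent of genes with 1 exon (purple) and with an annotated transcript under 1000 bases (green), for the members and for the other genes at 20 FPKM or more in isolated cells, by class. Members had the highest share with 1 exon, 47.4%, and genes lowered in meristematic tissue only the highest share of short transcripts, 63.0%.

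Members also lay side by side on the chromosomes. Of the 156, 12 were direct neighbours of another member (7.69%), against 66 of 5625 other genes at the minimum that neighboured a member (1.17%). The 6 pairs did not overlap. The pair AT4G12510 and AT4G12520 encodes lipid-transfer-like proteins of 1 family, at 3.83% and 1.48% of the isolated cell level at day 3. Another pair of 1 family, the acyltransferases AT2G32020 and AT2G32030, parted, at 62.8% and 6.82%, and so did AT3G07470 at 87.6% and AT3G07460 at 31.4%. Fragments of near-identical copies can be split between neighbours of a family, so their values are uncertain.

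Of the members, 30 overlap another annotated gene, 28 of them 1 on the opposite strand. The sources used here do not say whether counting used the strand, so their values may hold reads of the partner. Those described above are EXPA18, ADF11, AT4G26010, AT1G30870, AT1G19210, AT1G22810, TCH2, AT3G01830, MYBR1, SIP4, MKS1, MAPKKK19, PSK1, MMP, GATL6, AT1G28390 and AT1G48750. For the 4 of the 30 with a partner on the same strand, AT1G19210 among them, counting by strand would not separate those reads.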

How the data were processed

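RNA was measured in 17 libraries, made from poly(A) RNA with a directional kit and sequenced as read pairs, per the labels' protocols. The submitters' processing notes name HISAT2 and Cufflinks, without versions or settings, and the genome build was not found in the sources used here. FPKM values were computed and deposited by the authors, once per library and once pooled per group, and the q-values and log2 ratios of 7 comparisons were deposited by the authors beside the pooled values. FPKM carries no read totals, so depth is unknown. Libraries summed to 671184 to 996810 FPKM, with 14756 to 16946 genes at 1 or more; replicate 3 of meristematic cells had both the highest sum and the lowest gene number, and replicate 3 of day 1 constructs had nearly as few genes (14779).

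Line by line, the library columns correlated at a median r of 0.290, but at 0.997 for means over 500 lines and 0.998 with each library sorted, while the pooled groups reached 0.942 line by line. A line thus does not stand for 1 gene across libraries, and no test per gene over libraries was made. Calls use the deposited q, whose smallest value is 0.000551, so genes at it cannot be ranked. The sources used here say neither how q was computed nor how libraries relate to plants, so q may measure technical spread. Lines joining several gene IDs (282) were left out.

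Log2 ratios were computed from pooled FPKM with no pseudocount. Names, exons, lengths and upstream windows come from RefSeq's TAIR10.1, matched by gene ID; all 156 members matched and 68 had a symbol. The members and gene lists were chosen with earlier results of these data known, and the role groups after the members' values were seen. Genes were named by rule: members with a symbol and the 10 lowest mean printing ratios, the 8 highest and 8 lowest ratios of day 3 over isolated cells, up to 4 of the most abundant per list or class, the largest ratios called between day 1 and day 3, and those nearest the limit. Other genes, including all without a symbol, were chosen after their values were seen. The code that picks members was tested on simulated data. Python 3.11.15, pandas 2.3.3, numpy 2.4.6 and matplotlib 3.10.9 were used.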

Additional observations from a re-analysis of the deposited data

How the results depend on the processing

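The set depends on scaling, because summed pooled FPKM ran from 741440 in constructs at day 3 to 1234075 in meristematic cells. Rescaled to TPM, 73 genes met the rule, 72 of them members; after quantile normalization 73 did, 70 of them members; and with a limit of 33.3% of the isolated cell level 10 did. TPM moved the median log2 ratio of genes at the minimum by 0.10 for printing in differentiated tissue, 0.34 in meristematic tissue, 0.14 for day 3 over day 1 and 0.42 for day 3 over isolated cells. All 156 members stayed below isolated cells at day 0 under TPM, median-ratio factors and quantile normalization, and no called member turned its direction in any of the 7 comparisons. By value, TPM turned 27 members to lower in meristematic than in differentiated cells, 8 from lower to higher between day 1 and day 3, among them COL3, and 5 to above isolated cells at day 3, among them RTNLB3 and GONST4. Counted at 75% of the isolated cell level, 12 members had recovered by day 3; at the full level 7; and at 50% under TPM 35, in place of 23. Members rising between day 1 and day 3 numbered 1 at q under 0.01, 1 among the 149 members called lower in both tissues, 5 by a 2-fold ratio as deposited or with median-ratio factors, and 6 by a 2-fold ratio under TPM, in place of 2. The other alternatives, among them minimums of 10 (202 genes) and 40 (116) and no minimum at day 3 (196, chosen as a recovery count after seeing the data, still with 23 recovered), kept each count within 1.5 times. No paired analysis was possible because a line of the library table does not stand for 1 gene; for the same reason no replicate could be left out.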
